A study of Canis lupus familiaris with 26 samples.

Results

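Gene expression in the mature canine corpus luteum (CL) was compared between days 30 and 20 after ovulation in dogs that received no COX2 inhibitor. The comparison used 6 of the 26 samples of the series, chosen by their labels: the 3 day 20 control samples (replicates 1, 2 and 3) and the 3 day 30 control samples (replicates 2, 3 and 4). All dogs were mixed-breed bitches between 2 and 7 years of age that came into estrus spontaneously, and day 0 was set by circulating progesterone (P4) above 5 ng/ml. Neither genotype nor individual age was given for a group. The control dogs were given a placebo according to the methods, while the design text of the series calls them untreated. The other samples came from control dogs on days 5 and 10 and from dogs given 10 mg/kg of the COX2 inhibitor firocoxib daily until the CL was collected on day 5, 10, 20 or 30. CL were freed from the surrounding ovary and sequenced as whole tissue, so that fewer cells of a type and less RNA per cell cannot be told apart.

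In the dog the CL is the source of P4 throughout diestrus, whether or not the bitch is pregnant. The gland matures while it shifts from little need of gonadotropins to support by luteinizing hormone and, above all, by prolactin. Steroidogenic luteal cells take up or make cholesterol and convert it to P4, and they lie within a dense capillary bed lined by endothelial cells.

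Between 15955286 and 20156161 reads were counted on genes in each of the 6 samples, 14889 to 15192 genes had reads, and the 10 most counted genes took 17.4% to 24.1% of the reads. For pairs of samples of a day, chi-square per degree of freedom lay between 49.0 and 167, so that no pair of samples of the same day held copies. In a principal component analysis of the 2000 most variable genes, the leading axis held 50.1% of the variance. On it, day 30 replicate 2 scored 70.3, and the other 5 samples scored between -36.9 and 3.49, so that this sample stood apart from both days. Counts of genes called or with a P under 0.01 are therefore given with and without it, and so are values of several lists and genes. Where no second value stands, all 6 samples were used, and the value may depend on this sample. Of 6 markers set for luteal cells, only LHCGR and PRLR had a symbol in the sources used here, and both were expressed in all 6 samples.

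A difference between the profiles of both days beyond the spread between dogs was not detected. Across the 2000 genes, the mean distance between 2 day 20 samples was 66.4, that between 2 day 30 samples was 75.2, and that between a day 20 and a day 30 sample was 75.7 (Euclidean, on log2 CPM, the read count scaled by library size). The distance between the means of both days was 51.0, and 1 of the other 9 ways to divide the samples 3 against 3 gave a larger one (p = 0.2, exact permutation test, two-sided). With 3 dogs per day p cannot go below 0.1.

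Of 13133 genes tested, 0 genes (0%) passed both thresholds for a differentially expressed gene (DEG), a P under 0.01 and an FDR under 0.1, in edgeR's quasi-likelihood test. The smallest Benjamini-Hochberg FDR of this test was 0.530, and 1056 genes (8.04%) had an unadjusted P under 0.05. Limma voom also called 0 genes. DESeq2, the tool of the study, called 157 genes, of which 21 (0.16% of the genes tested) were higher and 136 (1.04%) were lower on day 30. Without day 30 replicate 2, DESeq2 called 155 genes, and 113 were called both with and without that sample. In edgeR's test 18 genes (0.137%) were higher and 211 genes (1.61%) lower on day 30 at an unadjusted P under 0.01, and over all genes tested the median was 0.002 on the log2 scale. Without day 30 replicate 2 these counts were 50 and 178, and 160 genes had a P under 0.01 in both fits. In 685 genes (5.22%) every day 30 sample lay above every day 20 sample, and in 919 genes (7%) every day 30 sample lay below.

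**Figure D1:**
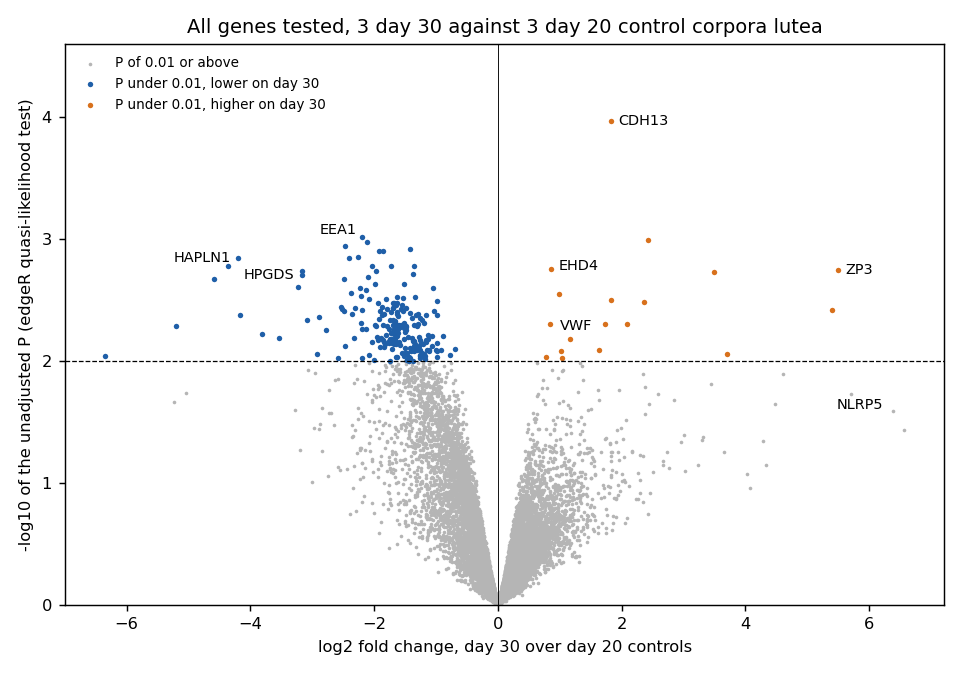
Log2 fold change of day 30 over day 20 controls (x axis) against the -log10 of the unadjusted P of edgeR's quasi-likelihood test (y axis) for 13133 genes, with a dashed line at a P of 0.01. Above the line lie 211 genes on the lower side and 18 on the higher side, with CDH13 at the top, and none of these genes passed the FDR threshold.

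The 15 genes with a symbol and the smallest P in each direction are described next. None of these 30 genes was a DEG in edgeR's test (Benjamini-Hochberg FDR 0.530 for each). DESeq2 called 27 of them, beside 0.16% of all genes called higher and 1.04% called lower. The 30 were chosen by P in the same 6 samples. Of the 157 genes that DESeq2 called, 151 had an edgeR P under 0.01, so that many of the 30 were bound to be called. In all 30 the samples of both days did not overlap, which is how genes with a small P were bound to look. All 30 kept their sign without day 30 replicate 2, and 20 of them had a smaller absolute log2 fold change without it.

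Among the genes with higher levels on day 30, several are known from blood vessels. CDH13 (ENSCAFG00000019974), which encodes T-cadherin, a cadherin held in the membrane by a lipid anchor, had the smallest P of all genes. It had 25.3, 21.9 and 15.7 CPM in the day 20 samples and 64.9, 72.6 and 94.7 CPM in the day 30 samples. All 3 day 30 dogs thus lay well above the day 20 dogs, with a log2 fold change of 1.83 (standard error, SE, 0.258; n = 3 per day), and DESeq2 gave an FDR of 2.345e-05. Without day 30 replicate 2 the log2 fold change was 1.997 (SE 0.265). VWF (ENSCAFG00000015228) encodes von Willebrand factor, the clotting protein stored by endothelial cells. It had 233, 252 and 290 CPM on day 20 and 558, 439 and 457 CPM on day 30, a log2 fold change of 0.85 (SE 0.220). The levels within each day were close to each other, and the sample that stood apart was the highest. AQP1, an aquaporin of capillary endothelium, had 13.2, 14.3 and 23.9 CPM on day 20 and 33.3, 36.6 and 50.7 CPM on day 30 (log2 fold change 1.16, SE 0.318). NES, the intermediate filament nestin, had 114, 134 and 157 CPM on day 20 and 306, 305 and 229 CPM on day 30 (log2 fold change 0.99, SE 0.233). PCDH12, an endothelial protocadherin, had 33.6, 41.2 and 60.6 CPM on day 20 and 109, 120 and 65.5 CPM on day 30. Day 30 replicate 4 was only just above the highest day 20 sample for PCDH12, in contrast to CDH13, for which it was the highest of all.

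Of the other higher genes, EHD4, an ATPase of endocytic recycling, had the narrowest groups at a high level. It had 98.8, 105 and 92.2 CPM on day 20 and 163, 194 and 205 CPM on day 30 (log2 fold change 0.86, SE 0.187). SLCO2A1, the prostaglandin transporter that takes prostaglandins up into cells, had 12.3, 15.8 and 19.4 CPM on day 20 and 29.4, 35.4 and 26.6 CPM on day 30 (log2 fold change 0.88, SE 0.271). DESeq2 did not call SLCO2A1 (FDR 0.132). TNFRSF19, a receptor of the tumour necrosis factor receptor family, had 14.1, 16.2 and 13.01 CPM on day 20 and 27.1, 23.3 and 26.8 CPM on day 30. B4GALNT3, a glycosyltransferase, had 2.64, 1.28 and 1.74 CPM on day 20 and 5.09, 8.70 and 7.34 CPM on day 30. Levels of KIAA1210 were almost equal within each day, at 4.69, 4.08 and 3.84 CPM on day 20 and 8.89, 8.89 and 9.34 CPM on day 30. SPOCK2, a proteoglycan of the extracellular matrix, and CLTCL1, a clathrin heavy chain, were spread more widely. For CLTCL1 the lowest day 30 sample (29.0 CPM) and the highest day 20 sample (28.8 CPM) nearly met. MYH1, a myosin heavy chain of skeletal muscle, and TMEM163, a zinc transporter, stayed under 5 CPM in all 6 samples.

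**Figure D2:**
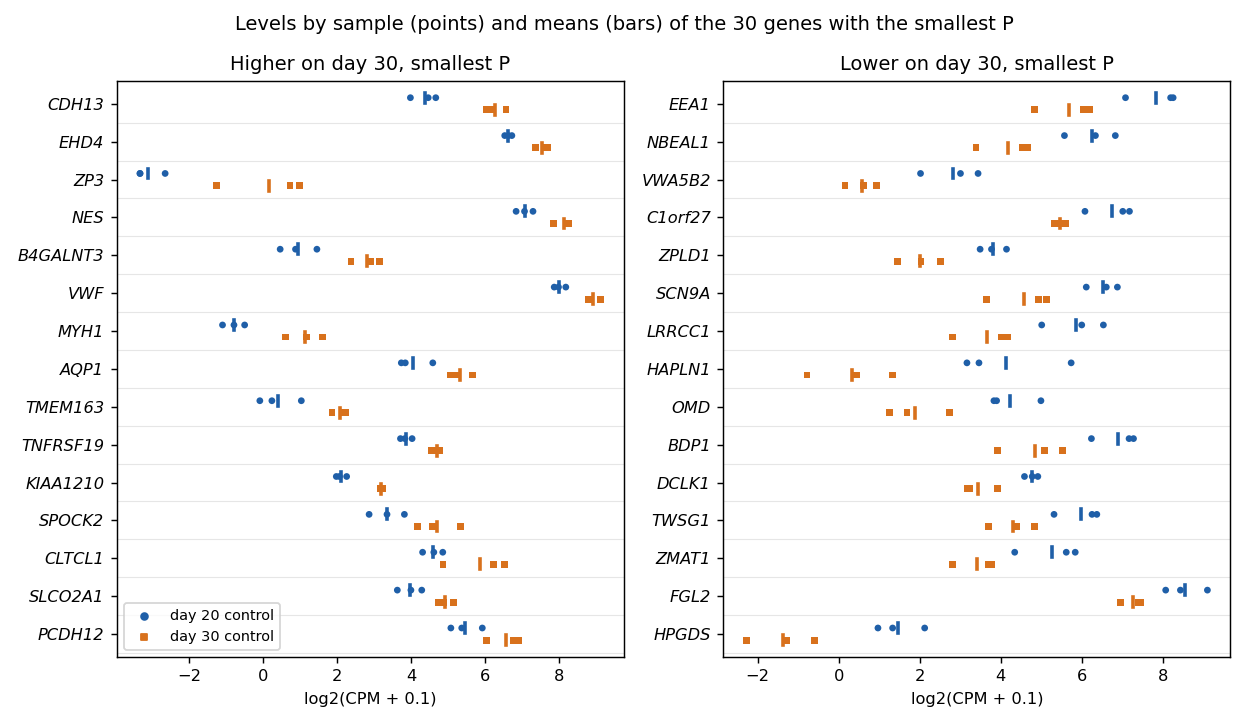
Levels in log2(CPM + 0.1) of the 15 genes with the smallest P in each direction, with a point for each of the 3 day 20 controls (blue circles) and 3 day 30 controls (orange squares) and a bar at the mean of each day. Groups do not overlap in any of the 30 genes, and day 30 replicate 2 is the lowest of all samples in each of the 15 lower genes.

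The lower genes with the smallest P had a common shape across the 6 samples. Day 30 replicate 2 was the lowest day 30 sample in all 15 named genes and in 195 of all 211 lower genes (92.4%, against 44% of all genes tested). The 211 were chosen for low levels on day 30 in these same 6 samples. Their share may differ from that of all genes by this choice alone. Among the day 20 samples replicate 3 was the lowest in 9 of the 15 and in 167 of the 211 (79.1%, against 40.5% of all genes tested). EEA1 (ENSCAFG00000006163), the tether through which early endosomes dock, had 293, 306 and 136 CPM on day 20 and 28.4, 65.8 and 73.3 CPM on day 30. Its log2 fold change was -2.19 (SE 0.431), and -1.82 (SE 0.366) without day 30 replicate 2. NBEAL1, of the BEACH protein family, had 114, 81.0 and 47.6 CPM on day 20 and 10.4, 25.1 and 23.0 CPM on day 30. BDP1, a subunit of the factor that recruits RNA polymerase III, had 155, 144 and 75.6 CPM on day 20 and 15.1, 46.1 and 33.7 CPM on day 30. In both genes the day 20 replicate 3 value was nearer to the day 30 samples than were its group mates. Day 20 replicate 3 and day 30 replicate 2 were also the lowest of their days in LRRCC1, a centrosomal protein (92.8, 64.0 and 32.2 CPM on day 20; 6.91, 16.1 and 17.9 CPM on day 30). SCN9A, a voltage-gated sodium channel, had 97.5, 118 and 69.2 CPM on day 20 and 12.5, 35.1 and 30.6 CPM on day 30. C1orf27 had 145, 129 and 67.7 CPM on day 20, and its day 30 samples were close together, at 39.9, 44.3 and 48.3 CPM.

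Genes of secreted and matrix proteins were also among the 15. HAPLN1, which links hyaluronan to proteoglycans, had the largest fold change of them. It had 53.4, 8.89 and 10.95 CPM on day 20 and 0.482, 1.25 and 2.43 CPM on day 30, a log2 fold change of -4.201 (SE 0.881). Day 20 replicate 1 alone reached 53.4 CPM, and the other day 20 dogs were still above all day 30 dogs. OMD (osteomodulin, a small leucine-rich proteoglycan) had 14.8, 31.8 and 14.2 CPM on day 20 and 2.30, 3.13 and 6.53 CPM on day 30. FGL2, a fibrinogen-like protein with immune functions, was the most highly counted of the 15 on day 30. It had 270, 551 and 347 CPM on day 20 and 125, 176 and 169 CPM on day 30 (log2 fold change -1.37, SE 0.302). TWSG1, a secreted modulator of BMP signalling, had 76.4, 82.9 and 39.8 CPM on day 20 and 12.9, 21.0 and 28.5 CPM on day 30. ZPLD1, a zona pellucida domain protein, had 11.2, 17.6 and 13.6 CPM on day 20 and 2.63, 4.01 and 5.601 CPM on day 30. DCLK1, a microtubule-associated kinase, had 24.0, 30.2 and 27.4 CPM on day 20 and 8.95, 15.02 and 9.34 CPM on day 30. For DCLK1 the day 20 replicate 3 value was in the middle of its group. ZMAT1, a zinc finger protein, and VWA5B2 completed the list with log2 fold changes of -1.98 (SE 0.432) and -2.47 (SE 0.499). HPGDS, a synthase of prostaglandin D2, was lowly expressed on both days. It had 1.86, 4.26 and 2.42 CPM on day 20 and 0.107, 0.563 and 0.311 CPM on day 30. HPGDS passed the read filter only through day 20, so that it was bound to be lower on day 30.

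Gene lists were used to describe pathways and cell types. Their members are those with a symbol on the lists of genes that the study called in other contrasts of these samples, so that a list is partial and not independent of these data. No list had a DEG in edgeR's test, and the share of all genes called was 0%.

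Endothelial cell markers had log2 fold changes above 0 in all 13 genes tested, with a median of 0.46 beside 0.002 for all genes. Every day 30 sample was above every day 20 sample in 4 of the 13, beside 5.22% of all genes. CDH5 (VE-cadherin, which joins endothelial cells) had 121, 83.1 and 123 CPM on day 20 and 163, 203 and 200 CPM on day 30. CD34, a sialomucin of capillary endothelium, had 183, 182 and 235 CPM on day 20 and 291, 347 and 330 CPM on day 30 (log2 fold change 0.63, SE 0.215). ENG (endoglin, a co-receptor for TGF-beta) had groups that nearly met, with 41.6, 54.9 and 88.8 CPM on day 20 and 169, 103 and 91.7 CPM on day 30. The summed level of the 13 markers ranged from 1520 to 1933 CPM on day 20 and from 2426 to 2894 CPM on day 30. Only VWF, 1 of the 13, was called by DESeq2, beside 0.16% of all genes and 0.321% of those with a symbol called higher. Without day 30 replicate 2, 12 of the 13 were above 0 and the median was 0.65, and it lay between 0.36 and 0.65 when 1 of the 6 samples was omitted. The 8 pericyte and smooth muscle markers had a median log2 fold change of 0.04, which was -0.21 without day 30 replicate 2 and 0.41 without day 20 replicate 3. Among the 20 angiogenic ligands and hypoxia genes the median was -0.13. ANGPT1, the ligand that stabilizes vessels, had 25.5, 36.2 and 20.9 CPM on day 20 and 3.70, 15.4 and 14.9 CPM on day 30. Its log2 fold change of -1.34 was -0.86 without day 30 replicate 2. FGF7 had a log2 fold change of -1.92 (SE 0.801), and -1.36 without that sample. Fibroblast growth factor FGF1 overlapped between days, with 13.7, 17.0 and 13.7 CPM on day 20 and 23.6, 11.01 and 24.0 CPM on day 30. THBS1 (thrombospondin), an inhibitor of angiogenesis, had a log2 fold change of 0.19 (SE 0.394), and NRP1, a VEGF co-receptor, one of 0.38 (SE 0.234).

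Steroid synthesis genes had a median log2 fold change of 0.10 over 10 genes, and 0.04 without day 30 replicate 2. CYP19A1, the aromatase that makes estrogen, had 1756, 2097 and 797 CPM on day 20 and 1512, 1578 and 1645 CPM on day 30. Its log2 fold change was -0.03 (SE 0.349), with the day 20 dogs spread far more widely than the day 30 dogs. HSD17B7, which serves in both estradiol and cholesterol synthesis, had 36.4, 59.8 and 48.2 CPM on day 20 and 82.8, 78.3 and 71.9 CPM on day 30. Its log2 fold change was 0.63 (SE 0.234, edgeR FDR 0.568). The days did not overlap in HSD17B7, 1 of the 10 tested genes of progesterone and estrogen synthesis. Of all genes tested, 5.22% had every day 30 sample above and 7% every day 30 sample below, so that 1 of 10 does not stand out. The nuclear receptor NR5A2, an activator of steroidogenic genes, had a log2 fold change of -0.48 (SE 0.248). Cholesterol synthesis enzymes had values above 0 in 9 of 11 genes (median 0.27, and 0.50 without day 30 replicate 2). Of these, DHCR7, the enzyme of the last step to cholesterol, had 88.8, 140 and 220 CPM on day 20 and 302, 211 and 254 CPM on day 30. TM7SF2, a sterol reductase, had 148, 215 and 305 CPM on day 20 and 619, 347 and 282 CPM on day 30, so that both genes overlapped. ABCA1, which exports cholesterol from cells, had 158, 59.1 and 70.1 CPM on day 20 and 27.4, 33.9 and 54.8 CPM on day 30 (log2 fold change -1.37, SE 0.425), without an overlap. Fatty acid genes had a median of 0.14 (17 genes), with FADS1 and FADS2, desaturases of fatty acids, at log2 fold changes of 0.58 (SE 0.329) and 0.89 (SE 0.488).

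Receptors for prolactin and gonadotropins had lower mean levels on day 30. PRLR, the prolactin receptor, had 393, 358 and 277 CPM on day 20 and 195, 224 and 267 CPM on day 30, so that the days did not overlap (log2 fold change -0.65, SE 0.224, edgeR FDR 0.545). Without day 30 replicate 2 the log2 fold change was -0.48 (SE 0.261). LHCGR, the receptor for luteinizing hormone, had 115, 52.0 and 30.2 CPM on day 20 and 31.8, 30.3 and 59.4 CPM on day 30, with an overlap. FSHR, the receptor for follicle-stimulating hormone, had 1712, 2401 and 1936 CPM on day 20 and 1425, 1649 and 1392 CPM on day 30, again without an overlap (log2 fold change -0.50, SE 0.244). LEPR, the leptin receptor, was near the limit of detection. It lay between 0.609 and 1.08 CPM on day 20 and between 0.0536 and 0.125 CPM on day 30. LEPR passed the read filter only through day 20, so that it was bound to be lower on day 30. INSR, the insulin receptor, had the opposite sign with 25.6, 17.4 and 23.8 CPM on day 20 and 34.6, 29.5 and 34.4 CPM on day 30. ESR1, an estrogen receptor, had a log2 fold change of 0.23 (SE 0.406), and 0.48 without day 30 replicate 2. Over the 11 receptors tested the median was -0.18, and 0.08 without day 30 replicate 2. In the prolactin receptor signalling list the median of 7 genes was -0.32, and it lay between -0.40 and 0.15 when 1 sample was omitted. The upper value was that without day 20 replicate 3.

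Prostaglandin genes had a median log2 fold change of -0.32 over 14 genes, with 4 above and 10 below 0. PTGS2, which encodes COX2, had 3.00, 54.3 and 17.8 CPM on day 20 and 11.1, 14.1 and 9.46 CPM on day 30, so that the range of day 20 enclosed all day 30 samples. PTGFR, the receptor for PGF2alpha and the most highly counted gene of this list named here, had 2431, 2984 and 1952 CPM on day 20 and 1265, 1746 and 2243 CPM on day 30 (log2 fold change -0.55, SE 0.296, and -0.30 without day 30 replicate 2). PTGIS, the prostacyclin synthase, had a log2 fold change of -0.54 (SE 0.360). The synthases PTGES (of PGE2), PTGDS (of PGD2) and TBXAS1 (of thromboxane) had log2 fold changes of 0.28 (SE 0.315), -0.27 (SE 0.781) and 0.13 (SE 0.425), and of 0.12, -0.73 and 0.38 without day 30 replicate 2. Only HPGDS, 1 of the 14, was called by DESeq2, beside 1.04% of all genes and 1.92% of those with a symbol called lower. HPGDS passed the filter only through day 20, so that it was bound to be lower on day 30.

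**Figure D3:**
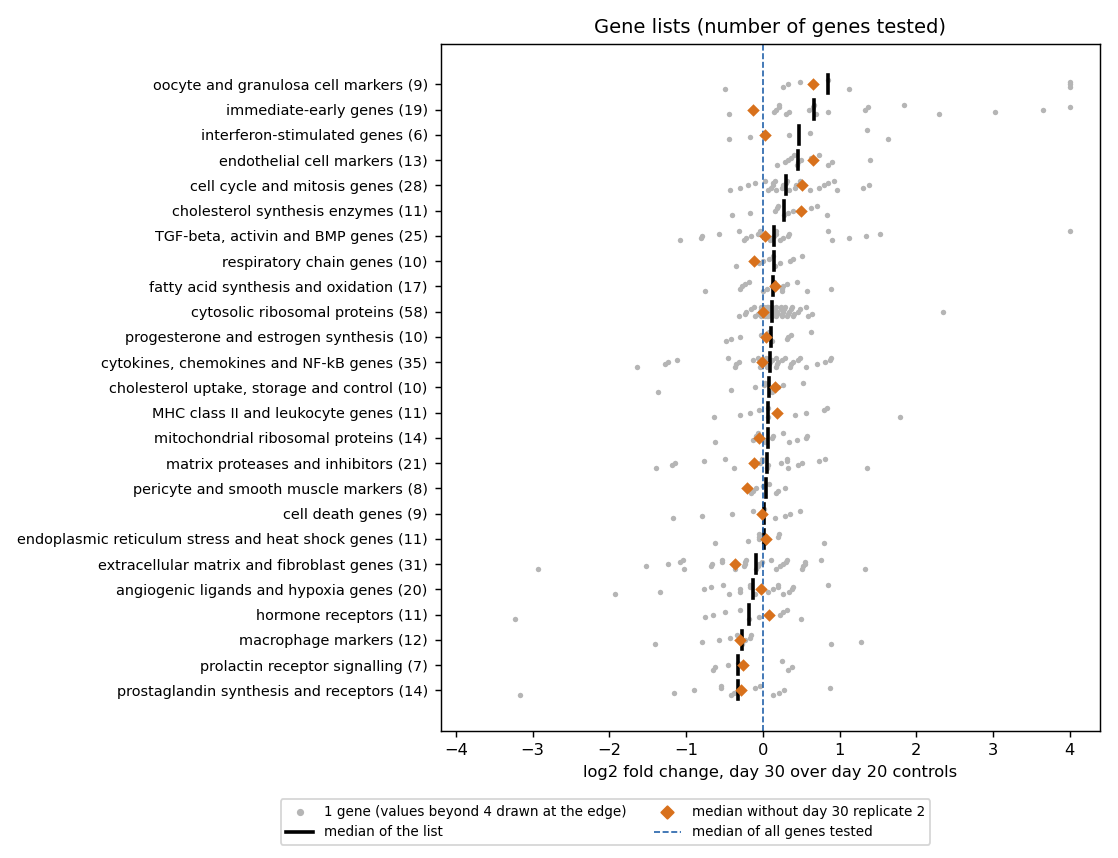
Log2 fold change of day 30 over day 20 controls (x axis) for each gene (grey points) of 25 lists with at least 6 genes tested, with the median of the list (black bar) and the median without day 30 replicate 2 (orange diamond). The endothelial list has all 13 points above 0, and the diamond of the immediate-early list is at -0.13 while its bar is at 0.66.

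Several lists rested on day 30 replicate 2. The 19 immediate-early genes, which respond to stimuli within minutes, had a median of 0.66, with 18 above 0, but -0.13 without that sample, with 6 above 0. EGR2 had 0.120, 1.83 and 1.42 CPM on day 20 and 67.4, 0.501 and 0.809 CPM on day 30. NR4A1, an orphan nuclear receptor of this group, had 3.24, 12.4 and 18.2 CPM on day 20 and 101, 13.1 and 11.7 CPM on day 30. In EGR2, EGR3 and IER2 the high value came from the same dog, and the other day 30 dogs were within the range of day 20. Interferon-stimulated genes (6 genes) had a median of 0.48 and of 0.03 without it, and respiratory chain genes (10 genes) 0.15 and -0.12. BST2, an interferon-induced membrane protein, was high in day 30 replicates 2 and 4 (77.9 and 62.6 CPM) and at 13.2 CPM in replicate 3, within the 13.04 to 19.8 CPM of day 20.

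Medians of stromal and immune lists depended on single samples. Without day 20 replicate 3 the medians were 0.36 for extracellular matrix genes, 0.59 for matrix proteases, 0.75 for MHC class II and leukocyte genes, 0.01 for macrophage markers and 0.10 for angiogenic genes. Of 31 extracellular matrix and fibroblast genes, 12 were above and 19 below 0 (median -0.08, and -0.36 without day 30 replicate 2). LOX, which cross-links collagen, had 27.0, 83.6 and 46.1 CPM on day 20 and 10.1, 28.0 and 18.8 CPM on day 30. MFAP5, a microfibril protein, had 11.1, 94.9 and 25.1 CPM on day 20 and 3.00, 3.44 and 11.5 CPM on day 30 and was called by DESeq2 (FDR 0.0380). LUM (lumican, a collagen-binding proteoglycan) had 262, 907 and 496 CPM on day 20 and 188, 372 and 257 CPM on day 30. TNC, tenascin C, had the opposite sign at a low level (log2 fold change 1.34, SE 0.502). Among 21 matrix proteases and inhibitors the median was 0.06, and -0.12 without day 30 replicate 2, with ADAMTS5, a protease of proteoglycans, at 7.45, 11.03 and 8.79 CPM on day 20 and 2.95, 4.57 and 3.30 CPM on day 30. MMP2, gelatinase A, had 89.0, 199 and 252 CPM on day 20 and 115, 117 and 99.9 CPM on day 30. The summed level of the 12 macrophage markers was 156 to 200 CPM on day 20 and 133 to 197 CPM on day 30, and 10 of the 12 were below 0. The 4 lymphocyte markers with a symbol summed to at most 4.11 CPM in any of the 6 samples. MHC class II genes differed between dogs within a day: DLA-DQA1 had 732, 385 and 295 CPM on day 20 and 289, 330 and 1574 CPM on day 30, with day 30 replicate 4 far above all others. In the cytokine list (35 genes, median 0.09, and -0.01 without day 30 replicate 2), TLR3, a sensor of double-stranded RNA, had 205, 209 and 105 CPM on day 20 and 48.1, 83.8 and 96.8 CPM on day 30. IL33, an alarmin, had 49.6, 53.7 and 36.8 CPM on day 20 and 9.54, 22.0 and 28.9 CPM on day 30. NFKB1 and NFKBIA, a subunit and an inhibitor of NF-kB, had log2 fold changes of 0.39 (SE 0.208) and 0.37 (SE 0.218), and IDO1 and ICAM1 had -0.04 (SE 0.943) and 0.17 (SE 0.506), or -0.79 and -0.44 without day 30 replicate 2.

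Cell cycle and mitosis genes were above 0 in 24 of 28 (median 0.31, and 0.51 without day 30 replicate 2), many of them at a few CPM. The 4 below 0 were CCND3, CCND2, CDK1 and CCNE2. Among the better counted members, mean levels on days 20 and 30 were 51.7 and 40.4 CPM for CCND3 and 51.5 and 47.1 CPM for CCND2. For MCM4, above 0, they were 43.7 and 54.6 CPM. MCM2, a subunit of the replicative helicase, had 2.52, 3.23 and 6.48 CPM on day 20 and 8.30, 6.51 and 6.66 CPM on day 30. CDC45, its partner, had 0.481, 0.366 and 0.685 CPM on day 20 and 0.964, 1.63 and 1.43 CPM on day 30. Cell death genes had a median of 0.02 over 9 genes. Of these, CRADD, an adaptor of caspase 2, had 44.3, 40.2 and 27.6 CPM on day 20 and 12.8, 16.5 and 22.8 CPM on day 30, and FAS, a death receptor, had a log2 fold change of 0.29 (SE 0.350). In the TGF-beta family list (25 genes, median 0.15, and 0.03 without day 30 replicate 2), SMAD9 had a log2 fold change of -0.79 (SE 0.300), and TGFBR1, a type I receptor, one of -0.80 (SE 0.459), which was -0.42 without day 30 replicate 2. NODAL had at most 1.81 CPM in these samples. The 58 cytosolic ribosomal protein genes had a median of 0.12, which was 0.001 without day 30 replicate 2 and 0.40 without day 20 replicate 3. The medians of the heat shock and cholesterol uptake lists were 0.01 and 0.08, and lay between 0.01 and 0.11 and between 0.05 and 0.16 when 1 sample was omitted. Those of the mitochondrial ribosomal protein and blood and adipose lists were 0.07 and -0.11, and lay between -0.05 and 0.34 and between -0.53 and 0.26.

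Oocyte genes were at a low level on both days. ZP3, which encodes a protein of the zona pellucida, the coat of the oocyte, had 1, 0 and 0 reads in the day 20 samples and 6, 30 and 25 reads in the day 30 samples. The ratio of day 30 to day 20 at equal depth was 62.6 (exact 95% interval 10.8 to 2513, which covers counting error only). BMP15, a growth factor of the oocyte, had 8, 0 and 0 reads on day 20 and 8, 63 and 131 reads on day 30, and NLRP5, an oocyte protein, had 0 reads on day 20 and 0, 12 and 18 on day 30. GDF9, another growth factor of the oocyte, had 166 reads on day 20 and 198 on day 30, a ratio of 1.22 with an interval of 0.991 to 1.51. Its log2 fold change in edgeR was 0.26 (SE 0.432). ZP2, of the zona pellucida, had 177 and 319 reads (ratio 1.85, interval 1.53 to 2.24, again for counting error only). Its dogs overlapped, with 13, 101 and 63 reads on day 20 and 66, 131 and 122 reads on day 30. With the spread between dogs, its log2 fold change in edgeR was 0.85 (SE 0.690). For NLRP5 the ratio was at least 10.3, with day 20 set to a floor of 3 reads over the group. ZP3, BMP15 and NLRP5 were each highest in day 30 replicates 3 and 4 and lower in replicate 2. All 3 passed the filter of 10 reads only through day 30, so that they were bound to be higher on that day. A difference between them and the other oocyte genes was not tested. ZP3 had mean levels of 6.37 CPM in day 5 and 14.2 CPM in day 10 controls, above the 1.25 CPM of day 30. The 9 oocyte and granulosa markers tested had a median log2 fold change of 0.85. ZP3, BMP15 and NLRP5 counted towards this median only because of their day 30 reads. EPCAM, the only surface epithelium marker tested, had 16.9, 3.05 and 10.6 CPM on day 20 and 37.5, 28.7 and 31.4 CPM on day 30. How far carried-over ovarian tissue took part in these values was not tested.

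The genes with a P under 0.01 were then followed through all 26 samples, which describes them and tests nothing. Levels were centred for each gene on its mean over the 13 controls. The median of the 211 lower genes was 0.40 to 1.21 in the day 20 controls and -1.47, -0.31 and -0.17 in the day 30 controls, with the lowest value in replicate 2. It was -0.80 to 0.94 in day 5 controls and -0.55 to -0.16 in day 10 controls, so that the day 30 samples other than replicate 2 were within the range of the early CL, and the day 20 replicates 1 and 2 were above every other sample of the series. The lowest values of the series, -2.62, -2.64 and -3.00, were in 1 treated sample each of days 5, 10 and 20. The median of the 18 higher genes was -0.93 to 0.08 in the other 10 controls, the day 20 controls included, and 1.24 to 1.38 in the day 30 controls.

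**Figure D4:**
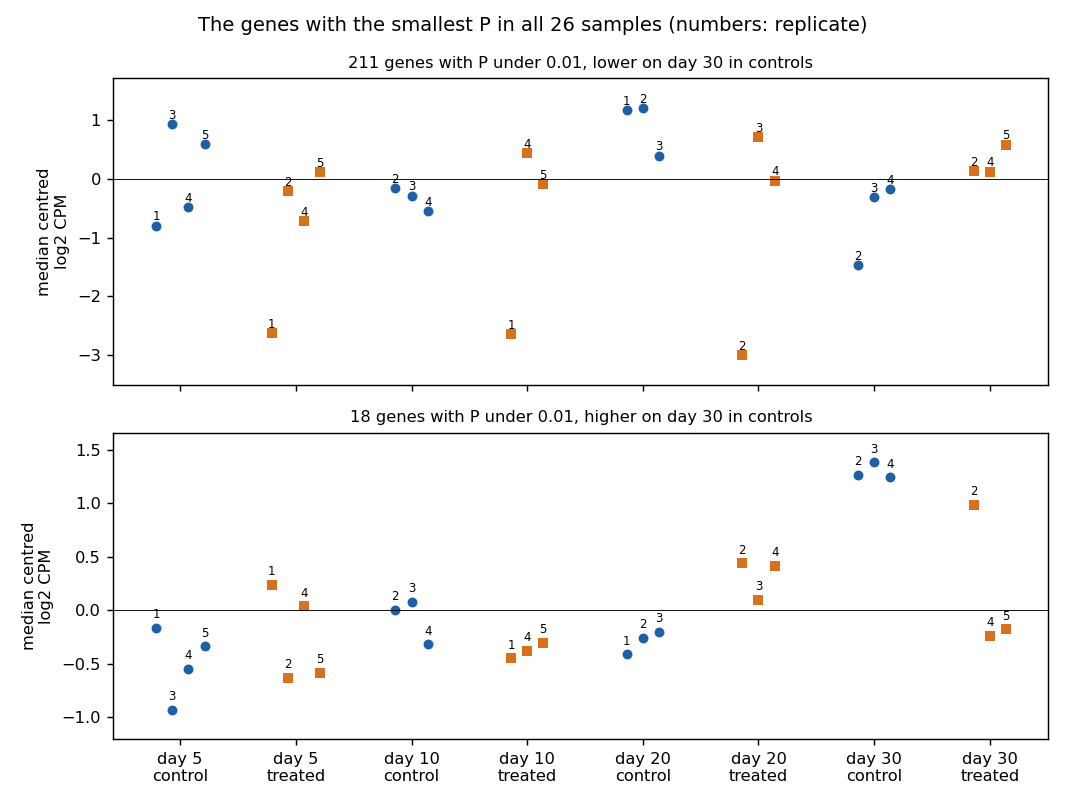
Median centred log2 CPM (y axis) of the 211 lower genes (upper panel) and the 18 higher genes (lower panel) in each of the 26 samples by day and treatment, with blue circles for controls, orange squares for treated dogs and replicate numbers beside the points. Day 20 replicates 1 and 2 and day 30 replicate 2 are at opposite ends of the controls in the upper panel, and all 3 day 30 controls are above all other samples in the lower panel.

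The step from day 20 to day 30 was compared with that in the 6 treated dogs of these days, which share no sample with the controls. In the difference between both steps (interaction of day and treatment), 0 of 13825 genes (0%) were DEGs in edgeR's test, with 1883 (13.6%) at an unadjusted P under 0.05, and DESeq2 called 560 genes (4.05%). Treated dogs alone had 0 DEGs (0%) between the days in edgeR's test, with 1332 genes (10.1%) at an unadjusted P under 0.05. Of the 211 genes lower in controls, 65 (30.8%) were also lower in treated dogs on day 30, beside 53.2% of all genes, and 146 (69.2%) were higher. These signs rested on day 20 treated replicate 2: without it 126 of the 211 (59.7%) were lower and 85 (40.3%) higher, beside 51.2% and 48.8% of all genes. The omission of any other treated sample left 119 to 185 of the 211 higher in treated dogs. Of the 18 higher genes 7 (38.9%) were also higher in treated dogs, beside 46.8% of all genes. CDH13 had a log2 fold change of -1.15 (SE 0.566) in treated dogs, and the difference from controls was -2.98 (edgeR's quasi-likelihood test, interaction FDR 0.278). FSHR had the opposite pattern, with 2.20 in treated and -0.50 in control dogs (interaction FDR 0.278). PRLR had 0.88 in treated and -0.65 in control dogs (interaction FDR 0.278). ZPLD1 and OMD had negative values in both, at -1.46 and -1.09 in treated dogs, and ZPLD1 was at -0.26 without day 20 treated replicate 3. The endothelial markers, with a median of 0.46 in controls, had a median of -0.18 in treated dogs, and of 0.25 without day 20 treated replicate 2. The extracellular matrix list, with -0.08 in controls, had -1.50. The differences between list medians were not tested.

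**Figure D5:**
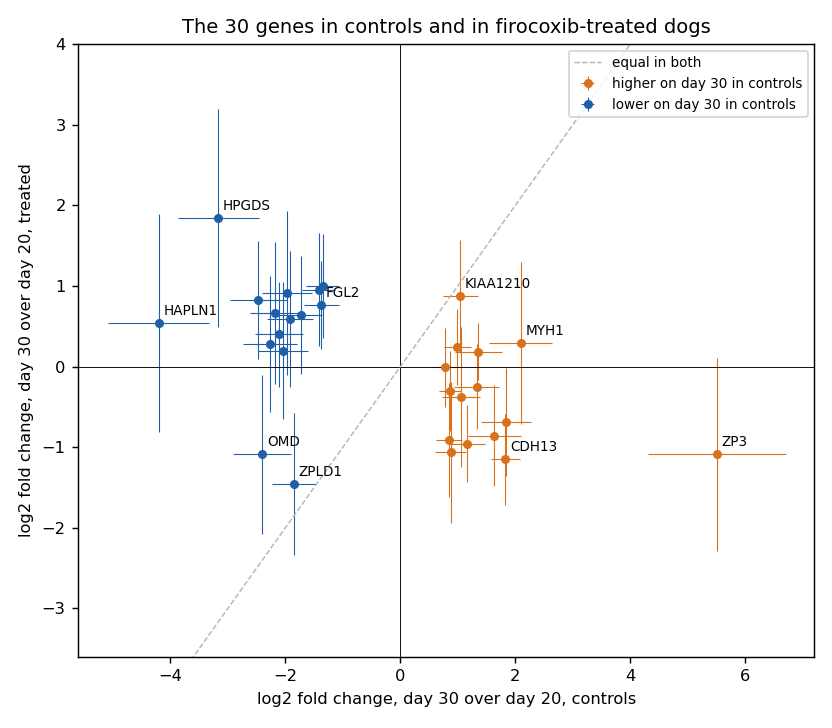
Log2 fold change of day 30 over day 20 in controls (x axis) and in treated dogs (y axis) of the 30 genes with the smallest P in controls, with bars of 1 SE (n = 3 per group) and a dashed line where both are equal. With all 3 treated dogs of each day, the lower genes (blue) have values above 0 in treated dogs apart from ZPLD1 and OMD. ZP3 is at 5.50 in controls and -1.09 in treated dogs. It passed the filter in controls only through day 30, so that its sign in controls was fixed beforehand.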

How the data were processed

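Poly-A RNA of CL tissue from individual dogs was sequenced with single-end reads. STAR (alignment to CanFam3.1) and featureCounts (Ensembl genes) were run by the authors, who deposited raw counts of 19856 genes without normalization or filter, and no versions are given in the sources used here. The library kit does not mark strand, so that overlapping genes cannot be told apart. The tools used here were limma 3.58.1, edgeR 4.0.16 and DESeq2 1.42.0 under R 4.3.3. A gene was kept if its mean on either day reached 10 reads. The quasi-likelihood test used TMM factors of the 6 samples, without covariates. Levels are CPM with TMM factors over all 26 samples. The SE is the log2 fold change over the root of F. A distance used log2 CPM with a prior count of 2. The tests were tried on simulated data.

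Named were the 15 genes with a symbol and the smallest P in each direction, up to 4 members of each list with the smallest P, and a list of genes of the study. Of these, STAR, CYP11A1, HSD3B2, NR5A1, PGR, TGFB1, PDGFB, FGF2 and VEGFA had no symbol in the sources used here, and FASLG and SULT1E1 were below the filter. The comparison, lists and rule were chosen with earlier results of these data known. Symbols came from the study's lists of genes called in other contrasts (4347 genes). Positions and sequences of genes were not used here. Alternatives were DESeq2, limma voom, RLE factors, other filters, a fit of all samples, other thresholds, other genes or values for the distance, the replicate block, and the omission of each sample in turn. DESeq2 without day 30 replicate 2, and the omission of each treated sample from the signs in treated dogs, were added after the data were seen. Samples that the study removed were not used here. A few genes that the rule would name are not reported here.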

Additional observations from a re-analysis of the deposited data

How the results depend on the processing

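The count of 0 DEGs in edgeR's test was the same with RLE factors, without a filter, with filterByExpr, with all 26 samples in 1 fit, with limma voom and at an FDR under 0.05 alone. DESeq2 gave 157 DEGs, and 155 without day 30 replicate 2. A P under 0.01 plus a change of 1 or more on the log2 scale in either direction, without an FDR, gave 216 genes. When 1 sample was omitted the count was 0 to 1. The single gene, called without day 30 replicate 2, was ENSCAFG00000016065, which has no symbol. For the interaction DESeq2 gave 560 DEGs, and 0 to 1 were called when 1 sample was omitted, the 1 (ENSCAFG00000000638) without day 20 treated replicate 2. These genes were looked up after the results were known.

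With the number of the animal as a replicate block 4 DEGs were called, 1 higher (TNN) and 3 lower (MFAP5 and ENSCAFG00000028656 among them). Only numbers 2 and 3 recur on both days, the fit leaves 1 residual degree of freedom, and nothing in the labels pairs the dogs. Deviations from the day means correlated across genes at -0.46 for number 2 and -0.28 for number 3. Pairs of unlike numbers had -0.50 to 0.53, so that these correlations cannot decide whether samples were paired. Each dog lost its ovaries on its day of collection, so that no dog gave tissue on both days. The distance between the days was 33.8 over 500 genes (exact permutation p = 0.1), 66.6 over all genes (p = 0.3) and 39.3 on variance-stabilized values (p = 0.2), and 44.9 to 62.4 when 1 sample was omitted. With 3 dogs per day only large changes can pass, and genes near the filter rest on few reads.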
